A study of Mus musculus with 7 samples.

Results

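The potassium channel subunit genes of mouse prefrontal cortex (PFC) were taken as the protein-coding rows of the deposited gene table whose symbol begins with Kcn, a subfamily letter code and a number. This gave 93 genes in 20 subfamilies, of 21885 protein-coding genes and 55416 genes in all. RNA sequencing of the PFC of female mice gave 7 libraries in 3 groups, injected with adeno-associated virus (AAV) that carried an empty vector (Ctr, n = 3), the reference allele of the human long noncoding RNA PAXIP1-AS1 (Ref, n = 2) or its alternative allele (Alt, n = 2). The animals were wild-type C57BL/6 mice, every group received virus that also encoded EGFP, and the human synapsin promoter restricts expression from such a virus largely to neurons. The labels give neither the age of the mice nor the interval between injection and dissection, and nothing in them says whether replicates were separate animals, so the p-values below measure only the spread between these libraries. The human transcript itself was not analysed here. Each library held between 16655697 and 20750857 counted reads.

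Potassium channels let potassium ions leave or enter the cell and so set the resting potential, the shape of the action potential and the firing rate of neurons. Voltage-gated channels are built from pore-forming subunits (Kcna, Kcnb, Kcnc, Kcnd, Kcnq, Kcnh), which some silent modifier subunits (Kcnf, Kcng, Kcns, Kcnv) join, and other pores open to intracellular calcium or sodium (Kcnma, Kcnn, Kcnt, grouped here with Kcnu), pass current more easily inward (Kcnj) or carry the background leak (Kcnk). Auxiliary subunits (Kcnab, Kcne, Kcnip, Kcnmb) do not form the pore and change the gating or surface delivery of the pores they bind.

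Levels between genes were compared per length, as deposited FPKM (fragments per kilobase of gene, scaled to library size). Over the 7 libraries, 31 of the 93 members averaged at least 10 FPKM, 35 averaged between 1 and 10 and 27 averaged under 1. Pooled over the 3 groups, the highest mean level was that of Kcnj10, an inward rectifier known from astrocytes, at 55.4 ± 10 FPKM (mean ± SD, n = 7), followed by the auxiliary subunit Kcnab2 at 48 ± 6.0 FPKM and the inward rectifier Kcnj4 at 42 ± 10.4 FPKM. In this order, each level lay within the larger SD of its neighbour. In the Ctr libraries alone, Kcnj4 led at 48.9 ± 6.7 FPKM (n = 3), Kcnj10 was at 47.5 ± 5.63 FPKM and Kcnab2 at 46.4 ± 3.64 FPKM, which differed by less than these SDs, and the mean of Kcnj10 was 63 FPKM in Ref and 59.7 FPKM in Alt. In the pooled order, Kcnh3 (38.3 ± 4.6 FPKM), Kcnj3 (35.1 ± 2.73 FPKM) and the modifier Kcnv1 (34.9 ± 4.96 FPKM) came next. Kcnk1 (28.5 ± 4.29 FPKM) and Kcnd2 (27.4 ± 3.83 FPKM) were also among the 10 highest and differed by less than their spread. In other subfamilies, the leading gene was Kcna2 (23 ± 6.82 FPKM), Kcnc4 (18 ± 3.15 FPKM), Kcnma1 (25.5 ± 8.71 FPKM), Kcnf1 (23.6 ± 4.6 FPKM), Kcng1 (9.04 ± 1.31 FPKM), Kcns2 (7.55 ± 1.27 FPKM), Kcnn3 (3.44 ± 0.75 FPKM), Kcnt2 (8.25 ± 1.38 FPKM), Kcnu1 (0.542 ± 0.156 FPKM), Kcne1l (1.35 ± 0.62 FPKM), Kcnip4 (21.3 ± 3.87 FPKM) or Kcnmb4 (5.73 ± 1.42 FPKM). Kcnh3 shares part of its locus with Mcrs1 on the other strand (18.4% as many reads), and the strand setting of the counting is not given in the sources used here.

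**Figure D1:**
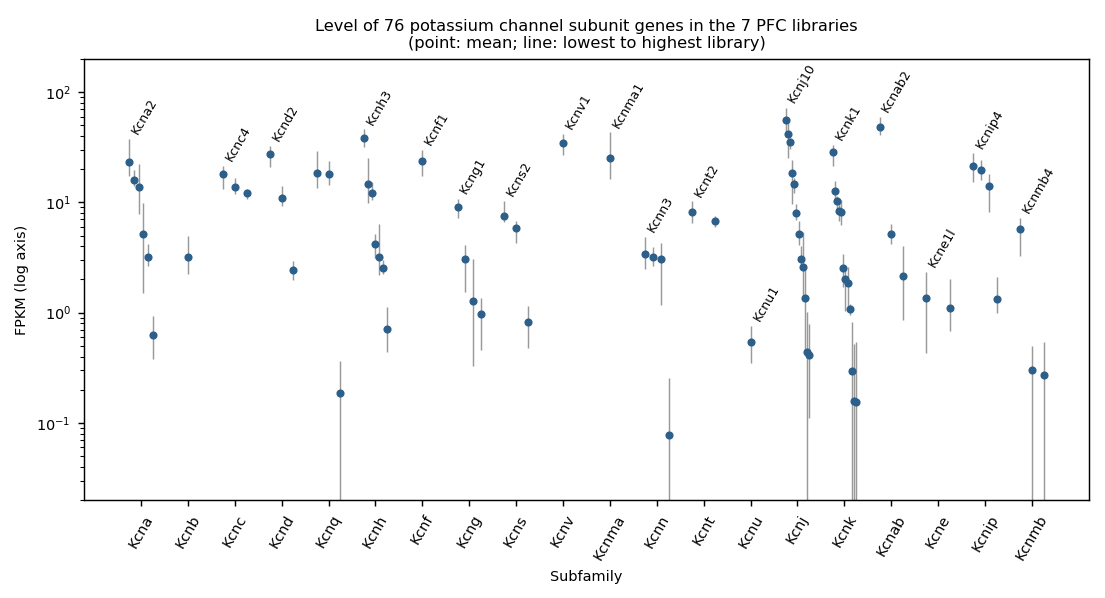
Level of 76 of the 80 potassium channel subunit genes that passed the filter on low counts (the others are not reported here), as FPKM on a log axis, by subfamily. Each point is the mean of the 7 libraries, each line runs from the lowest to the highest library (lines cut off at the lower edge reach 0 or nearly so), and the gene with the highest mean is named in 18 subfamilies, with Kcnj10 highest over all 7 libraries at 55.4 FPKM.

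Of the 93 genes, 80 had enough reads to be tested and 13 did not. Of these 13, Kcna7, Kcnj1, Kcnk16, Kcnk18 and Kcnv2 had no read in any library, and the highest count of any of the other 8 (Kcna10, Kcne1, Kcne2, Kcne3, Kcnh8, Kcnj5, Kcnj15 and Kcnmb3) in any library was 15. A count of 0 allows up to 3 reads in a library, and such floors cover counting error only. The 4 choroid plexus markers, cells known to express Kcne2 and Kcnj13, summed to between 0.0993 and 2.12 CPM (counts scaled by TMM to a common library size) in the 7 libraries. Kcnj13 itself was at 0.645, 0.345 and 0.929 CPM in the Ctr, 0.339 and 0.259 CPM in the Ref and 0 and 1.34 CPM in the Alt libraries, and lies inside Gigyf2, a gene with far more reads on the other strand.

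Between Alt and Ctr, 21 of the 80 tested members were higher in Alt and 3 were lower at an unadjusted p under 0.05, and 56 did not pass, where 9.45% of all 17254 genes tested were higher and 10.3% were lower. No member passed an adjusted p of 0.05 (0% of all genes did) in the quasi-likelihood test of edgeR, and the smallest adjusted p was 0.12, reached by Kcng3 among others. In DESeq2, 14 members passed an adjusted p of 0.05, beside 8.5% of all genes with an adjusted value, and these were 13 higher genes and Kcnj9. Below, a gene is called higher or lower, or said to have passed, where its unadjusted p was under 0.05, and the p printed is the adjusted one. Of the 80 differences, 50 were positive and 30 negative, and their median was 0.17 on the log2 scale, against -0.03 for all genes tested. In bulk tissue, fewer cells of a type and less RNA per cell cannot be told apart.

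The pore-forming voltage-gated subunits held most of these genes. Of 27 tested, 14 were higher and 0 were lower in Alt than in Ctr, with a median log2 difference of 0.37. Of the 12 tested auxiliary subunits, 0 were higher and 0 were lower, with a median of -0.22. Among the other classes, 2 higher and 0 lower genes were counted for the 8 calcium- or sodium-activated subunits, 2 and 0 for the 12 leak channels, 2 and 2 for the 12 inward rectifiers and 1 and 1 for the 9 modifiers. The summed level of the 30 pore-forming voltage-gated genes was 296, 299.6 and 316 FPKM in the Ctr, 308 and 311 FPKM in the Ref and 432 and 351 FPKM in the Alt libraries, so that both Alt libraries lay above the other 5. The summed level of the 16 auxiliary genes was 138, 114 and 125 FPKM in the Ctr, 138 and 117 FPKM in the Ref and 94.3 and 117 FPKM in the Alt libraries, and these groups overlapped. No test of the difference between classes was made.

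**Figure D2:**
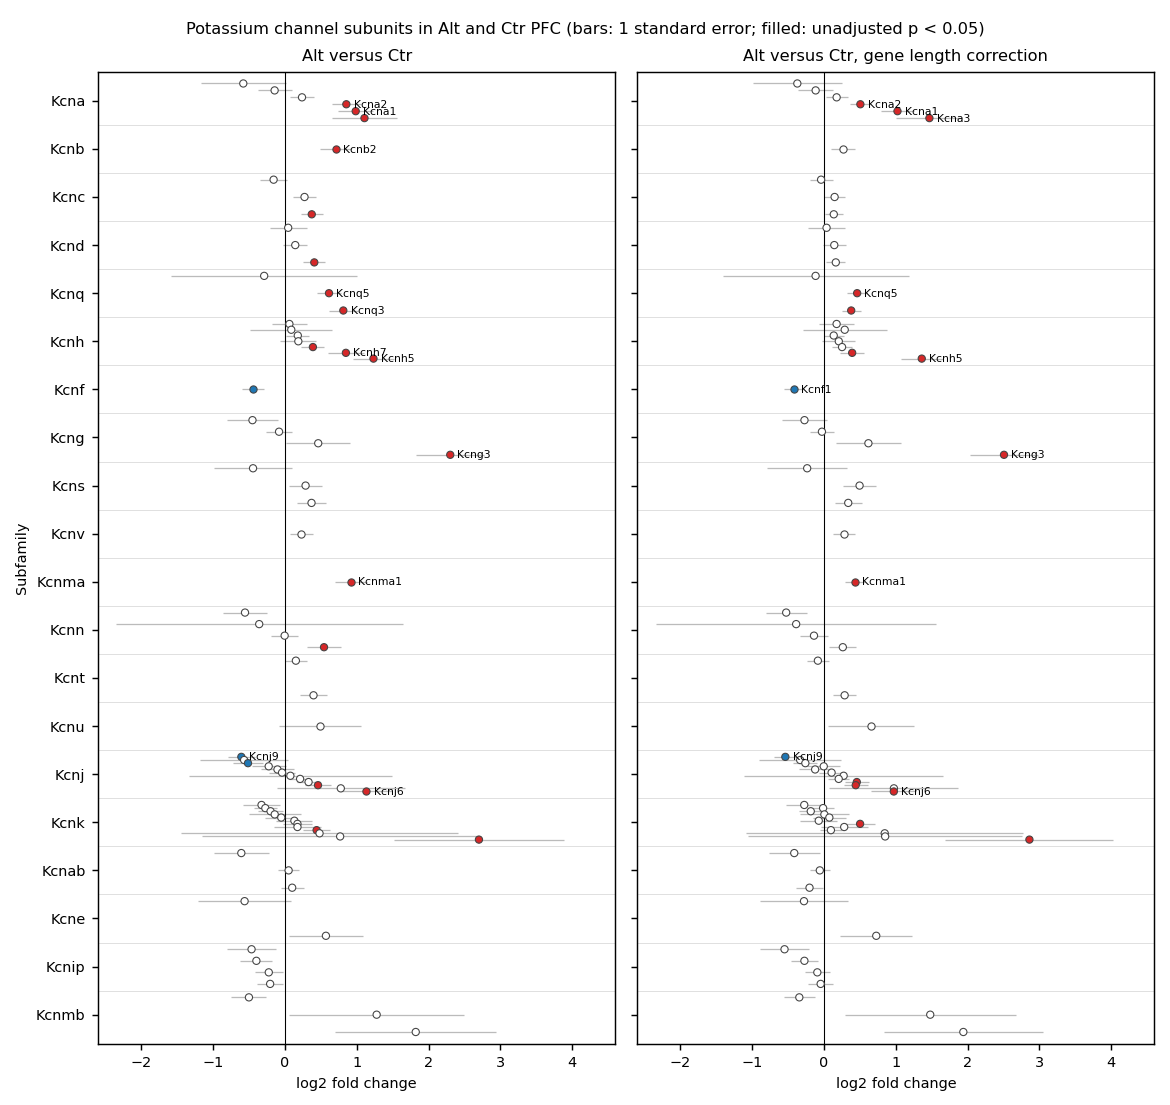
Log2 fold change between Alt and Ctr of 76 of the 80 tested potassium channel genes (horizontal axis), by subfamily (vertical axis), without (left) and with (right) a correction for gene length. Points are genes with 1 standard error, red and blue mark genes higher and lower at an unadjusted p under 0.05, and names are given at p under 0.01; the points of Kcna, Kcnb, Kcnq and Kcnh reach farther to the right than those of Kcnip, all 4 of which lie left of 0 in both panels.

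Among the delayed rectifiers, which help to end the action potential, Kcnb2 stood at 32.4, 52.7 and 43.5 CPM in the Ctr, 33.1 and 39.5 CPM in the Ref and 81.9 and 57.8 CPM in the Alt libraries. Its log2 difference between Alt and Ctr was 0.70 ± 0.22 (SE; adjusted p = 0.137 in edgeR). Both Alt libraries lay above all others.

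The Kcna subunits form the low-threshold channels of axons. Kcna2 stood at 199, 224 and 232 CPM in the Ctr, 214 and 286 CPM in the Ref and 481 and 309 CPM in the Alt libraries (0.85 ± 0.20, adjusted p = 0.12 between Alt and Ctr), with both Alt libraries above the rest. Kcna1 stood at 35.9, 58.3 and 49.7 CPM in the Ctr, 56.5 and 78 CPM in the Ref and 116 and 74.2 CPM in the Alt libraries (0.99 ± 0.24, adjusted p = 0.12), where Alt and Ctr did not overlap but Alt and Ref did. Kcna3 was also higher in Alt than in Ctr, at 1.11 ± 0.45, adjusted p = 0.207, while the log2 differences of Kcna4, Kcna5 and Kcna6 were -0.14 ± 0.24, -0.58 ± 0.59 and 0.24 ± 0.17 and did not pass. Kcnab2, the most abundant beta subunit of Kcna channels, had a log2 difference of 0.05 ± 0.15, adjusted p = 0.888.

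The Kcnc subunits repolarize fast-spiking neurons. Kcnc1 was higher in Alt than in Ctr (0.37 ± 0.15, adjusted p = 0.208), and Kcnc2 (0.27 ± 0.15, adjusted p = 0.342) and Kcnc4 (-0.16 ± 0.19, adjusted p = 0.699) did not pass. Of 6 inhibitory neuron markers, 3 (Pvalb, Sst and Vip) were lower and 0 were higher in Alt than in Ctr. Gad1 (-0.35), Gad2 (0.16) and Slc32a1 (-0.01), also among the 6, did not pass. The summed CPM of the 6 was 277 to 350.3 in the Ctr, 258 to 269.9 in the Ref and 240.5 to 247 in the Alt libraries, and its part in the Kcnc values was not tested.

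The Kcnq subunits carry the slow M-current that muscarinic receptors close. Kcnq3 stood at 191, 233 and 249 CPM in the Ctr, 197 and 265 CPM in the Ref and 471 and 318 CPM in the Alt libraries (0.81 ± 0.20, adjusted p = 0.12 between Alt and Ctr). Both Alt libraries lay above all others. Kcnq5 was higher in Alt as well (0.61 ± 0.16, adjusted p = 0.121).

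In the Kcnh subfamily, related to the ether-a-go-go channels, Kcnh5 stood at 8.74, 10.1 and 9.15 CPM in the Ctr, 8.51 and 13.1 CPM in the Ref and 27.8 and 16.1 CPM in the Alt libraries (1.23 ± 0.28, adjusted p = 0.12 between Alt and Ctr). Kcnh7, which overlaps Gca on the other strand (6.7% as many reads), stood at 153, 203 and 199 CPM in the Ctr, 142 and 238 CPM in the Ref and 416 and 251 CPM in the Alt libraries (0.85 ± 0.25, adjusted p = 0.127). Both Alt libraries were above all others for each gene, with Ref replicate 2 the nearest. Kcnh1 was higher by 0.39 ± 0.16, adjusted p = 0.206, whereas Kcnh3, the most abundant gene of the subfamily, had a log2 difference of 0.18 ± 0.16, adjusted p = 0.571. Among the A-type channels, which open below threshold, Kcnd3 was higher (0.41 ± 0.15, adjusted p = 0.172), and the more abundant Kcnd2 had a log2 difference of 0.14 ± 0.17, adjusted p = 0.686.

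**Figure D3:**
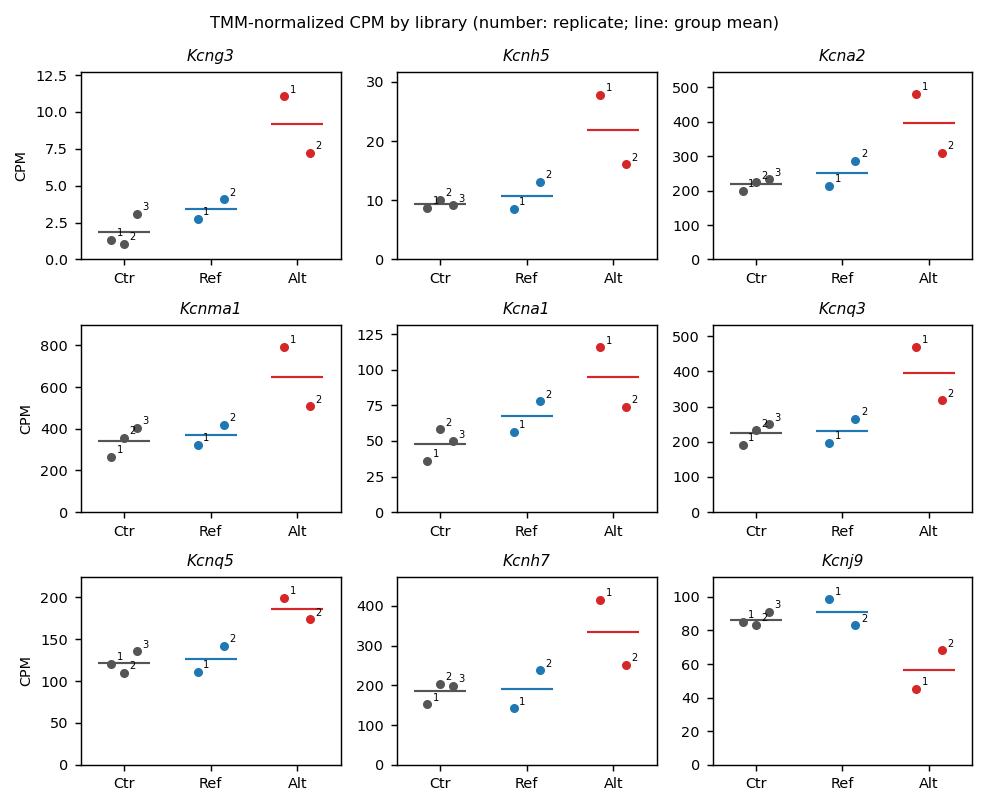
TMM-normalized CPM of 9 of the 12 potassium channel genes with the smallest p between Alt and Ctr, by group and library (points, numbered by replicate) with the group mean (line). Alt replicate 1 is the higher Alt library in all 8 of them that were higher in Alt, and Kcnj9 is lowest in the 2 Alt libraries.

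Of the channels opened by calcium or sodium, Kcnma1, the large-conductance calcium-activated pore (chr14:23339499-24064559 as the table lists it), stood at 266, 358 and 405 CPM in the Ctr, 322 and 418 CPM in the Ref and 792 and 509 CPM in the Alt libraries (0.92 ± 0.22, adjusted p = 0.12 between Alt and Ctr). The only build that the submitters' processing notes name for these mouse libraries is the human hg19, so the build of the positions printed from the table is uncertain. Both Alt libraries lay above all others. Its neuronal beta subunit Kcnmb4, which overlaps an antisense gene with 13.4% as many reads, had a log2 difference of -0.50 ± 0.24, adjusted p = 0.279. Kcnn3, a small-conductance channel, was higher in Alt (0.54 ± 0.23, adjusted p = 0.225), and Kcnn2 (-0.00 ± 0.18, adjusted p = 0.994), Kcnn1 (-0.56 ± 0.31, adjusted p = 0.336) and the sodium-activated Kcnt1 (0.15 ± 0.15, adjusted p = 0.627) and Kcnt2 (0.40 ± 0.18, adjusted p = 0.255) did not pass.

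The modifier subunits, silent on their own, change the Kcnb channels they join. Kcng3 had 27, 22 and 67 reads in the Ctr, 57 and 79 reads in the Ref and 170 and 130 reads in the Alt libraries, which is 1.34, 1.08 and 3.11 CPM in the Ctr, 2.76 and 4.09 CPM in the Ref and 11.1 and 7.25 CPM in the Alt libraries. Its log2 difference of 2.30 ± 0.48, adjusted p = 0.12 between Alt and Ctr rested on these low counts, and both Alt libraries lay above all others. Kcnf1 went the other way, at 138, 124 and 121 CPM in the Ctr, 117 and 99 CPM in the Ref and 89.6 and 97.4 CPM in the Alt libraries (-0.45 ± 0.15, adjusted p = 0.153).

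Among the inward rectifiers, the G protein-gated subunits Kcnj9 and Kcnj6 differed between Alt and Ctr in opposite directions. Kcnj9 stood at 85, 83.3 and 90.9 CPM in the Ctr, 98.9 and 83.1 CPM in the Ref and 45.1 and 68.3 CPM in the Alt libraries (-0.61 ± 0.19, adjusted p = 0.135 between Alt and Ctr), with both Alt libraries below all others. Kcnj6 stood at 10.1, 13 and 19.5 CPM in the Ctr, 16.1 and 19.7 CPM in the Ref and 45 and 17.6 CPM in the Alt libraries (1.13 ± 0.36, adjusted p = 0.139). For Kcnj6, only Alt replicate 1 lay above the Ctr range and Alt replicate 2 lay inside it, and the gene shares its locus with a noncoding gene on the other strand whose reads amount to 30.3% of its own. The ratio of Kcnj6 to Kcnj9 in FPKM was 0.0669, 0.088 and 0.121 in the Ctr, 0.0912 and 0.133 in the Ref and 0.56 and 0.145 in the Alt libraries (two-sided exact permutation p = 0.1 between Alt and Ctr, the smallest that 10 arrangements allow). The same libraries had already given the calls of both genes in opposite directions, so this permutation result adds nothing to those calls. Kcnj3, the subunit that both can pair with, had a log2 difference of 0.21 ± 0.16, adjusted p = 0.481. In FPKM, the ratio of Kcnj6 to Kcnj3 was 0.042, 0.0454 and 0.0784 in the Ctr and 0.149 and 0.0592 in the Alt libraries. These overlapped (two-sided exact permutation p = 0.3). The ratio of Kcnj9 to Kcnj3 was 0.627, 0.516 and 0.65 in the Ctr and 0.266 and 0.408 in the Alt libraries, which did not overlap.

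Kcnj10 and Kcnj9 lie side by side on chromosome 1, at chr1:172168777-172201652 and chr1:172148068-172156885 in the table. Kcnj10, which takes up potassium in astrocytes, stood at 213, 269.5 and 265 CPM in the Ctr, 276 and 401 CPM in the Ref and 369 and 317 CPM in the Alt libraries (0.46 ± 0.18, adjusted p = 0.198 between Alt and Ctr), so every Ref and Alt library lay above every Ctr library. The summed CPM of 5 astrocyte markers was 1343 to 1686 in the Ctr, 1688 to 1775 in the Ref and 1545 to 1656 in the Alt libraries, none of the 5 differed between Alt and Ctr at p under 0.05 and 2 were higher in Ref than in Ctr, and their part in the Kcnj10 values was not tested. Kcnj4, abundant in forebrain neurons, was lower in Alt than in Ctr (-0.51 ± 0.20, adjusted p = 0.194). The vascular subunit Kcnj8 had a log2 difference of -0.57 ± 0.62, adjusted p = 0.657, Kcnj16, a partner of Kcnj10, one of 0.33 ± 0.16, adjusted p = 0.285, and Kcnj13 one of 0.08 ± 1.41, adjusted p = 0.984.

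The sequences upstream of 4 of these genes are shown because the genes had the smallest p in either direction among members with a single entry in the RefSeq promoter table (GRCm38.p6, whose positions differ from those of the deposited table), in which 68 of the 93 members had an entry. Each runs 5′ to 3′ over the 250 bases before the annotated start, and capitals mark the GC box (GGGCGG) and the TATA box (TATAAA) on either strand. The first pair was higher in Alt, with Kcng3 at chr17:83631896-83632145 and Kcnh5 at chr12:75177333-75177582, and the second pair lower, with Kcnj9 at chr1:172329323-172329572 and Kcnf1 at chr12:17176889-17177138, all on the minus strand.
Kcng3: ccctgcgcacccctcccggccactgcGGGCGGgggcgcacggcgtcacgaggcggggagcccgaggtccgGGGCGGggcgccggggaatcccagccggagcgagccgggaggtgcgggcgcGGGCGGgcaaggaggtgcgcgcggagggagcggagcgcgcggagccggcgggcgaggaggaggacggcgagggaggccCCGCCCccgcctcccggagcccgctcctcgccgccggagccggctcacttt
Kcnh5: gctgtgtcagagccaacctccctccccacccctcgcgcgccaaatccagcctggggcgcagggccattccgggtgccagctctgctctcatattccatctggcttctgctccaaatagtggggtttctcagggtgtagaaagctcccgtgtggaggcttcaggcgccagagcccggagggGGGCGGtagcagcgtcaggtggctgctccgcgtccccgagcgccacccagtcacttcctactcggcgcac
Kcnj9: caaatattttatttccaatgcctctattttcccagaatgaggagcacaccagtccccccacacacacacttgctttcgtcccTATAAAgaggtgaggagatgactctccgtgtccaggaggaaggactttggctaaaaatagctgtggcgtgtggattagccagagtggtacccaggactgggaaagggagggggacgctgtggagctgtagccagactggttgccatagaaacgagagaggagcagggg
Kcnf1: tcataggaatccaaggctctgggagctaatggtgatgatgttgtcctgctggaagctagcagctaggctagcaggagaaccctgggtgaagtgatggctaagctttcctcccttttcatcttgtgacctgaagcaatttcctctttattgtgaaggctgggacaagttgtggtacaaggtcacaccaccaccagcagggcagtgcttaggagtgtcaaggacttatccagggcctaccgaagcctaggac

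The Kcng3 window held 4 GC boxes and 41 CpG dinucleotides, and that of Kcnh5 held 1 and 16. The Kcnj9 window held 0 GC boxes, 1 TATA box and 5 CpG dinucleotides, and the Kcnf1 window held neither motif and 1 CpG dinucleotide. A GC box was present in 32.7% of all 32851 windows of this length and in 45.2% of the 93 windows of potassium channel genes (some genes have several starts), and a TATA box in 12.4% and 3.23%. Among other called members, Kcnj4, lower in Alt, held 35 CpG dinucleotides and 3 GC boxes, and Kcna2, higher in Alt, held 18 and 0. Such matches describe the letters in a window and no more.

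Of the leak channels, which hold the resting potential, Kcnk9 was higher in Alt than in Ctr, at 80.8, 117 and 85.2 CPM in the Ctr and 143 and 113 CPM in the Alt libraries (0.44 ± 0.19, adjusted p = 0.223), where Alt replicate 2 fell below the highest Ctr library. Kcnk5 passed as well (2.70 ± 1.19, adjusted p = 0.235), but on 5, 0 and 17 reads in the Ctr and 26 and 52 reads in the Alt libraries. The more abundant Kcnk1 (-0.27 ± 0.16, adjusted p = 0.355) and Kcnk2 (-0.20 ± 0.17, adjusted p = 0.556) did not pass.

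Of the auxiliary subunits, the 4 Kcnip genes, calcium-binding partners of Kcnd channels, all had negative log2 differences between Alt and Ctr, and none passed (with the length correction, Kcnip3 was at 0.073 without Alt replicate 2 and Kcnip4 at 0.031 without Alt replicate 1). Kcnip1 and Kcnip4 each overlap a gene on the other strand (with 13.1% and 9.29% as many reads). The log2 differences were -0.46 ± 0.34 for Kcnip1, -0.40 ± 0.22 for Kcnip2, -0.21 ± 0.18 for Kcnip3 and -0.22 ± 0.20 for Kcnip4. Kcnab1 and Kcnab3, beta subunits of Kcna channels, had log2 differences of 0.10 ± 0.16, adjusted p = 0.788 and -0.61 ± 0.38, adjusted p = 0.403. Beyond the Kcn genes themselves, a list of 21 genes for proteins that bind or anchor potassium channels was examined. Of its 20 tested genes, 6 were higher in Alt than in Ctr (Adam22, Adam23, Ank2, Ank3, Cntn2 and Cntnap2) and Vapa was lower, beside 9.45% and 10.3% of all genes. The largest of these differences, 0.75 ± 0.22 on the log2 scale, was that of Ank3, which anchors Kcnq3 at the axon initial segment. After the correction for gene length described next, 0 of the 20 were higher and 1 was lower (Nedd4l, a ubiquitin ligase), beside 7.3% and 9.06% of all genes, and Ank3 had a log2 difference of -0.01.

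Gene length moved with the difference between Alt and Ctr in the whole table. Over all genes tested, the longest 20% had a median log2 difference of 0.27 and the shortest 20% one of -0.37. Spearman's rho between length and log2 difference was 0.333 over all 17254 genes and 0.322 over the 80 members, as a description across genes that share the same libraries. By library, the medians of the longest and the shortest 20% stood 0.41 and -0.61 from the Ctr mean in Alt replicate 1 and 0.14 and -0.19 in Alt replicate 2. The median length was 4486.5 bases for the members tested and 4051 bases for all genes, and 18 of the 80 members fell in the longest 20% against 6 in the shortest. Among those 18 are Kcnb2, Kcna2, Kcnq3, Kcnh7 and Kcnma1. The part of length in the values of the members was examined with a correction.

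**Figure D4:**
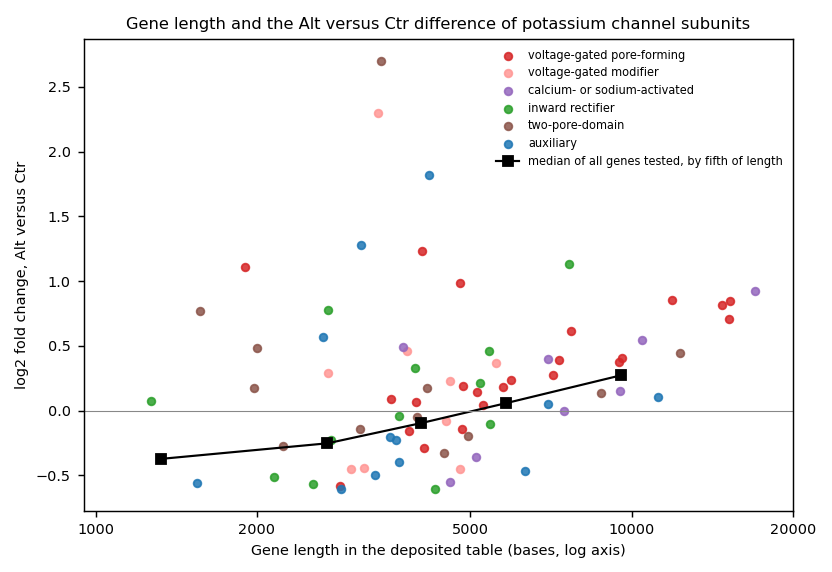
Log2 fold change between Alt and Ctr (vertical axis) against gene length in the deposited table (horizontal, log axis) for 76 of the 80 tested potassium channel genes, coloured by class. Black squares are the medians of all genes tested in 5 bins of length, which run from -0.37 to 0.27; most long pore-forming voltage-gated genes lie above them.

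With a correction that removed the trend with length in each library, 16 members were higher in Alt than in Ctr and 2 were lower (7.3% and 9.06% of all genes), the median of the members was 0.15, and rho over the members was 0.00935. Of the 21 higher genes, 14 were also called after it (Kcna1, Kcna2, Kcna3, Kcng3, Kcnh5, Kcnh7, Kcnj6, Kcnj10, Kcnk5, Kcnma1, Kcnq3 and Kcnq5 among them), and of the 3 lower genes Kcnf1 and Kcnj9 were. The calls of Kcnb2, Kcnc1, Kcnd3, Kcnh1, Kcnk9 and Kcnn3 were among those lost, as was the lower call of Kcnj4. By contrast, 2 members were called higher only after the correction, Kcnj16 (0.46 ± 0.17) among them. Of the pore-forming voltage-gated subunits, 9 of 27 were then higher and 0 lower, with a median of 0.18. The log2 difference of Kcnq3 fell to 0.38 ± 0.13. It was then, for Kcnma1, 0.43 ± 0.14, for Kcna2 0.51 ± 0.14 and for Kcnh7 0.39 ± 0.17. The shorter Kcna1 (1.02 ± 0.23), Kcnh5 (1.36 ± 0.29) and Kcng3 (2.51 ± 0.47) kept values close to those without it.

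Alt replicate 1 lay farther from the Ctr mean than Alt replicate 2 in 20 of the 21 higher genes and in all 3 lower ones, beside 90.5% and 84.5% of all genes called higher and lower. Without Alt replicate 1, 12 members were higher and 1 was lower (3.68% and 4.46% of all genes), and 10 of the 21 were among the 12, including Kcnk5 and Kcng3 (log2 difference 1.97), Kcnh5 (0.79), Kcna1 (0.63), Kcnma1 (0.57), Kcnq5 (0.51), Kcna2 (0.50) and Kcnq3 (0.50). Among the higher genes that no longer passed were Kcnh7 (0.44), Kcnb2 (0.44), Kcna3 (0.61), Kcnj6 (0.31), Kcnj10 (0.35), Kcnk9 (0.26), Kcnd3 (0.23), Kcnn3 (0.20), Kcnc1 (0.19) and Kcnh1 (0.16). None of the 3 lower genes passed, with Kcnf1 at -0.39, Kcnj9 at -0.34 and Kcnj4 at -0.27. In that fit, the single Alt library is assumed to vary like the other groups. With the length correction as well, 9 members were higher and 2 lower (2.89% and 4.53% of all genes). Kcna1 (0.61), Kcng3 (2.02), Kcnh5 (0.80) and Kcnq5 (0.42) still passed in that combination, whereas Kcna2 (0.33), Kcnma1 (0.33) and Kcnq3 (0.28) did not. Of the 29 pore-forming voltage-gated subunits tested without Alt replicate 1 and without that correction, 8 were higher and 1 was lower. Without Alt replicate 2, 24 members were higher and 9 lower (14.3% and 18.9% of all genes), and 24 passed an adjusted p of 0.05 in edgeR, beside 18.3% of all genes. Without Ctr replicate 1, 13 members were higher and 2 were lower (5.69% and 6.06% of all genes).

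The comparison of Alt with Ref sets the alternative allele against the reference allele of the same transcript. Of the 80 members, 18 were higher in Alt and 4 were lower at an unadjusted p under 0.05, beside 6.71% and 8.83% of all genes, and the median was 0.19. No member passed an adjusted p of 0.05 in edgeR, where 0.0058% of all genes did (the smallest among members was 0.229, for Kcnb2), and 5 did in DESeq2, beside 3.82% of all genes. Of the 18, 12 were pore-forming voltage-gated subunits. The smallest p values included those of Kcnb2, at 33.1 and 39.5 CPM in the Ref and 81.9 and 57.8 CPM in the Alt libraries (0.95 ± 0.25, adjusted p = 0.229), Kcnab3 (-1.50 ± 0.42, adjusted p = 0.233), Kcnq3 (0.77 ± 0.22, adjusted p = 0.236) and Kcnj9 (-0.68 ± 0.20, adjusted p = 0.236). The same Alt libraries enter this comparison and that of Alt with Ctr. All 4 oligodendrocyte markers named below were lower in Alt than in Ref and 2 (Mbp and Mag) were lower in Alt than in Ctr, and their part in the Kcnab3 values was not tested.

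Kcnn1 was also lower and stood at 18.6 and 19.4 CPM in the Ref and 5.85 and 13.1 CPM in the Alt libraries. Kcnj10, higher in Alt than in Ctr, had a log2 difference between Alt and Ref of 0.02 ± 0.20. Without Ref replicate 1, 4 members were higher and 2 lower (1.3% and 2.88% of all genes), and without Alt replicate 1, 5 were higher and 2 lower (2.35% and 4.4%), so the count rested on both of these libraries. Without Alt replicate 2, 23 were higher and 9 lower (11.6% and 17.3%), and 19 passed an adjusted p of 0.05, beside 14.4% of all genes. With the length correction, 18 members were higher and 3 were lower (7.42% and 5.6% of all genes), and the log2 differences of Kcnb2 and Kcnq3 were 0.58 ± 0.18 and 0.42 ± 0.15, both still called.

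The comparison of Ref with Ctr shows the reference allele against the empty vector. Only 3 of the 80 members were higher and 0 were lower, beside 2.19% and 0.945% of all genes, with a median of 0.02, and 0 members passed an adjusted p of 0.05 in edgeR or in DESeq2. Among the 3 were Kcnj10 (0.44 ± 0.18, adjusted p = 1) and Kcnab3, which stood at 5.21, 3.49 and 7.25 CPM in the Ctr, 10.9 and 8.84 CPM in the Ref and 2.67 and 4.29 CPM in the Alt libraries (0.89 ± 0.36, adjusted p = 1). For Kcnab3, both Ref libraries lay above all others and both Alt libraries lay within or below the Ctr range. The summed CPM of 4 oligodendrocyte markers (Mbp, Mog, Mag and Mobp) was 1998 to 2172 in the Ref, 1056 to 1269.95 in the Ctr and 907 to 919.8 in the Alt libraries; 3 of the 4 were higher in Ref than in Ctr, and their part in the values of Kcnab3 and Kcnj10 was not tested.

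Along the order Ctr, Ref, Alt, scored 0, 1 and 2, 20 members rose and 3 fell at an unadjusted p under 0.05 in edgeR, beside 8.85% and 7.89% of all genes. No member passed an adjusted p of 0.05, with the smallest at 0.166. In DESeq2, 8 members did, beside 5.31% of all genes, including Kcna1, Kcna2, Kcnh5, Kcnma1, Kcnq3 and Kcnq5.

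Counted by libraries that did not overlap, 24 of the 80 members had both Alt libraries above all 3 Ctr libraries and 7 had both below, where 16.8% and 18.1% of all genes did. Between Alt and Ref the numbers were 26 and 14 (21.6% and 26.1% of all genes), and between Ref and Ctr 14 and 7 (12.4% and 10.5%). The summed CPM of 5 excitatory neuron markers, cells in which many of the members are expressed, was 4460 to 5006 in the Ctr, 5140 to 5205 in the Ref and 5704 to 5858 in the Alt libraries; 2 of the 5 were higher and 1 was lower in Alt than in Ctr. Both markers of oligodendrocyte precursors (92.2 to 124 CPM in the Ctr and 147 to 179.6 CPM in the Alt libraries, summed) and 2 of 5 endothelial markers (194 to 256 and 290.3 to 351 CPM) were higher in Alt, 1 of 5 microglial markers was higher and 1 lower, and 0 of 4 mural and 0 of 5 striatal neuron markers passed. The part of these cell types in the values of the members was not tested.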

How the data were processed

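Total RNA of the PFC was sequenced from poly(A) libraries made with a stranded kit. Reads were aligned with STAR and counted with featureCounts per the labels, the only build the submitters' processing notes name is the human hg19, and the mouse build, the annotation and the strand setting are not given in the sources used here. The deposited table of 55416 genes holds raw read counts per gene as the authors made them. It also holds TPM and FPKM, which the authors computed from counts and gene length. TPM was not used. Library totals of 16655697 to 20750857 reads limit the precision of low genes. Groups were taken from the sample titles. Members were defined by symbol, and the members and lists were chosen with earlier results of these data known.

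Counts of all genes were filtered by group with filterByExpr (17254 genes kept), scaled by TMM and tested with the quasi-likelihood test of edgeR 4.0.16 in R 4.3.3 over all 7 libraries, with Benjamini-Hochberg adjustment over all genes kept. Log2 fold changes are given with standard errors, and p is unadjusted and two-sided unless named otherwise. The tests were checked on simulated counts. Ratios of FPKM were compared with exact permutation tests. Alternatives were DESeq2 1.42.0, other size factors, no filter, protein-coding genes alone, a replicate block, each library left out, and a gene length correction (loess of each library's log2 CPM deviation on log2 length, span 0.3, entered as offsets). The length correction with an Alt library left out was added after seeing the data.

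The text names a list of 20 widely expressed or cell-type-marking subunits, the members with the smallest p (up to 12 for Alt versus Ctr and 6 for each other comparison), the 10 with the highest mean FPKM, the leading gene of each subfamily, and up to 5 channel partners with the smallest p. Other genes were named after their values were seen. Some genes that these rules name are not reported here, but counts, medians and summed levels over channel genes include them.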

Additional observations from a re-analysis of the deposited data

How the results depend on the processing

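For Alt versus Ctr, the number of higher members (21) ranged from 12 to 24 over fits without 1 library each, the number of lower members (3) was 1 to 9 and the median (0.17) was 0.086 to 0.20. The fewest higher members came without Alt replicate 1 (12) and Ctr replicate 1 (13), and without Ctr replicate 2, 5 were lower (9.82% of all genes). For Alt versus Ref, the higher members (18) numbered 4 to 23, the lower (4) 2 to 9, and the median (0.19) was 0.039 to 0.19. For Ref versus Ctr, the higher members (3) numbered 1 (without Ref replicate 2, 0.699% of all genes) to 6 (without Alt replicate 1, 3.37%), the lower (0) 0 to 1, and the median (0.021) was 0.0030 to 0.070. A fit that leaves out an Alt or Ref library assumes that the lone library varies like the others. Without the low-count filter, 6 members were lower in Alt than in Ctr and 1 in Ref than in Ctr (8.59% and 0.881% of all genes), and the median of Alt versus Ref was 0.13. With the length correction, the Alt versus Ref median was 0.24 and the Ref versus Ctr median -0.052, with 3 members lower in Ref (3.27% of all genes), where the median of all genes was -0.064. DESeq2 gave 1 lower member for Ref versus Ctr (1.4% of all genes). Along the order of groups, 0 members passed an adjusted p of 0.05 in edgeR, 8 in DESeq2, 10 in DESeq2 on protein-coding genes and 14 in edgeR without the filter, beside 0%, 5.31%, 5.25% and 4.22% of all genes with an adjusted p. With the length correction and without Alt replicate 1, 9 members were higher in Alt than in Ctr (2.89% of all genes; median 0.058), 5 were higher and 2 lower than in Ref (3.08% and 3.37%; median 0.12), and 5 were higher and 5 lower in Ref than in Ctr (2.59% and 5.02%; median -0.062); without Alt replicate 2, 6 were lower in Alt than in Ctr (16.8%) and 6 in Ref than in Ctr (4.93%; median -0.060).

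No pairing by replicate number was seen. Same-numbered libraries deviated together with r between -0.098 and 0.070, and 0 libraries correlated best with their own number. In a group of 2, the deviation of 1 library is the reverse of the other's, so these values cannot exclude a pairing. With the replicate block, 16 members were higher in Alt than in Ctr and 3 lower (6.54% and 6.1% of all genes), 13 higher and 3 lower than in Ref (3.76% and 5.25%), and 3 higher and 0 lower in Ref than in Ctr (1.79% and 0.707%; median 0.080).

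Among members of the list of 20 that did not pass between Alt and Ctr, 7 changed sign under some alternative. Kcnab2 (0.051) was at -0.058 with the length correction and -0.22 with that correction and without Alt replicate 2, and leaving out 1 library gave -0.039 to 0.14. With the correction, Kcnt1 (0.15) was at -0.085 (-0.089 and -0.087 without Alt replicate 1 and 2), Kcnd2 at -0.0061 without Alt replicate 1 and Kcnip3 at 0.073 without Alt replicate 2. Kcnn2 was at 0.020 in DESeq2, at 0.019 with the RLE size factors and at -0.075 to 0.065 when 1 library was left out. Kcnj8 was at -0.995 to 0.11 when 1 library was left out. Kcnj13 was at -0.060 with the block and at -6.67 to 1.05 when 1 library was left out; without Alt replicate 2, the remaining Alt library had no read and the value (-6.67, and -6.63 with the length correction) depends on the prior count. Of other members whose difference is given, Kcnab1 (0.10) was at -0.20 with the length correction (-0.044 and -0.38 without Alt replicate 1 and 2), Kcna4 at 0.063 without Alt replicate 2 (0.11 with the correction), Kcnc4 at 0.046 without Alt replicate 1 (0.072 with it), and, with the correction and without Alt replicate 1, Kcna6 was at -0.026 and Kcnip4 at 0.031. The little-read Kcnq1 (-0.29) was at 0.66 without Alt replicate 2 (0.80 with the correction) and at 0.15 without Ctr replicate 1. Apart from changes that the settings themselves bring (fewer libraries or genes tested), the cause was not tested.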

Other observations

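Noncoding genes named after potassium channel loci were not among the members. Kcnq1ot1, the antisense noncoding RNA of the imprinted Kcnq1 locus, stood at 11.2, 19.5 and 15.7 CPM in the Ctr, 9.24 and 13.7 CPM in the Ref and 61.6 and 17.4 CPM in the Alt libraries. It passed an unadjusted p of 0.05 in edgeR in both comparisons, with a log2 difference of 1.35 between Alt and Ctr and 1.78 between Alt and Ref and Alt replicate 2 lay within the Ctr range. Kcnq1 itself, a cardiac and epithelial channel gene that lies over it on the other strand, had few reads, with log2 differences of -0.29 ± 1.30 and 0.65 ± 1.44. Kcnd3os and Kcnmb4os2 were tested and did not pass an unadjusted p of 0.05 between Alt and Ctr, and Kcnmb4os1 and Kcnab3os had too few reads to test. These 5 genes were chosen after their values were seen.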
